A study of Mus musculus with 6 samples.

Results

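The nuclear genes for the subunits of the respiratory chain and the ATP synthase were followed in Ocy454 cells, a mouse cell line with properties of osteocytes. Members were the rows of the expression table whose symbols begin with Ndufa, Ndufb, Ndufc, Ndufs or Ndufv and a digit (complex I), with Uqcr (complex III), with Cox4 to Cox8 (complex IV) or with Atp5 (complex V), leaving out symbols that contain -ps. They were 81 of 39179 listed genes, with 37 for complex I, 8 for complex III, 18 for complex IV and 18 for complex V. The rule used symbols and no measured value. It also took in Atp5s and Atp5sl, which RefSeq lists as Dmac2l and Dmac2, and Atp5l2, which the GENCODE M21 annotation lists as a processed pseudogene.

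All cells had been kept for 14 days at 37 °C and were then treated for 4 h. They received vehicle, 1 nM parathyroid hormone (PTH) or 0.5 µM YKL-05-093, a small molecule that inhibits the salt-inducible kinases. In the paper this compound also targeted other kinases in vitro. Some genes measured there still responded to it in cells lacking the salt-inducible kinases SIK2 and SIK3. Each condition had 2 libraries, and the labels do not say whether these came from separate cultures, so p-values measure the spread between these libraries, which may be technical. Ocy454 is a single line, and each library is a bulk measurement in which fewer cells and less RNA per cell cannot be told apart. RNA depleted of ribosomal RNA was sequenced, and levels are given in RPKM (reads divided by the length of the gene and by the reads of the library). The library totals behind the RPKM values, worked back from them, lay between 17505798 and 27983585, of which the members took between 0.917% and 1.25%. The listed genes held 99.7% of these totals, which are below the average number of read pairs sequenced per sample in the paper. The osteoblast and osteocyte genes Col1a1 (259 to 430 RPKM) and Pdpn (53.1 to 171 RPKM) were high, whereas the mature osteocyte markers Sost (at most 0.0519 RPKM), Mepe (at most 0.136 RPKM) and Dmp1 (0.376 to 1.15 RPKM) were at or near 0.

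In the inner mitochondrial membrane, complex I takes electrons from NADH, complex III passes them from ubiquinol to cytochrome c, complex IV hands them to oxygen, and the proton gradient that results drives the ATP synthase, complex V. Each of these complexes has a part encoded by mitochondrial DNA and many subunits encoded in the nucleus. Several nuclear subunits of complexes IV and V have paralogues that are used in heart and skeletal muscle or in other tissues. Nuclear respiratory factor 1 (NRF-1), the ETS factor GABP, YY1 and the PGC-1 coactivators are known regulators of these genes.

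Of the 81 members, 75 reached 0.5 RPKM in at least 2 of the 6 libraries and were tested. The median of their mean levels was 70.7 RPKM. Complex I members had a median of 63.1 RPKM, complex III members 78.7 RPKM, complex IV members 130 RPKM and complex V members 70.1 RPKM. The plot of levels by complex shows that the 6 libraries lay close together for most genes, next to the distance between genes.

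**Figure D1:**
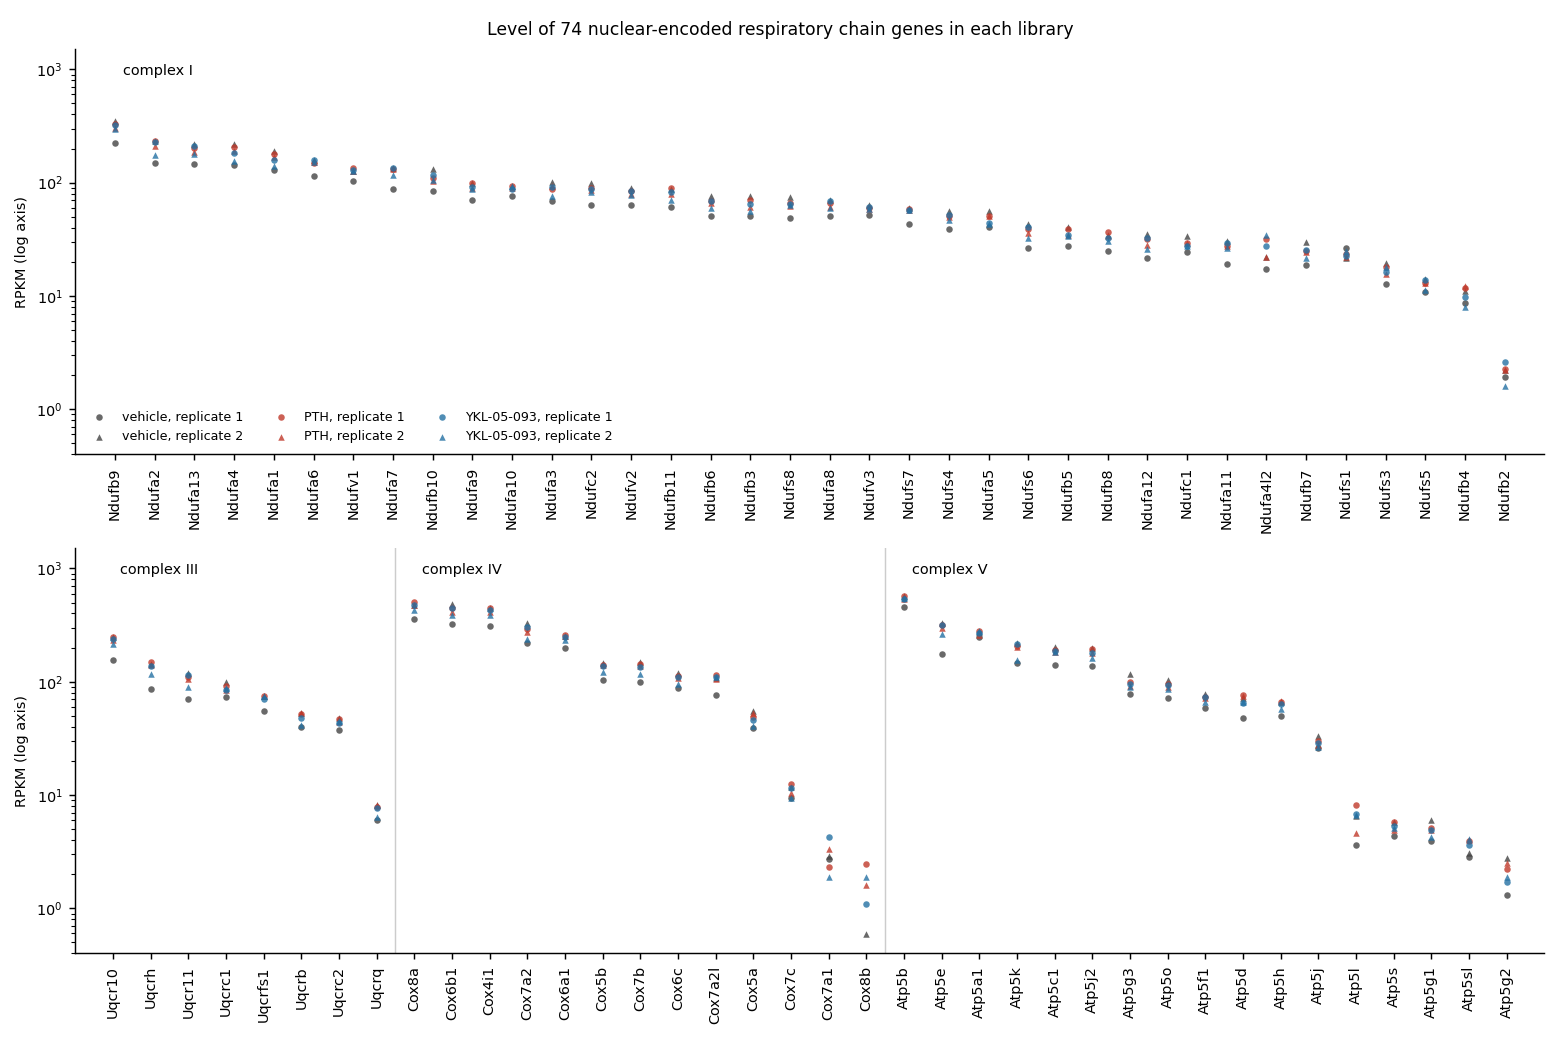
Level in RPKM (log axis) of 74 of the 75 members that were tested, ordered by mean level within each complex. Each point is 1 library, coloured by condition, with circles for replicate 1 and triangles for replicate 2. Atp5b was the highest member and Cox8b the lowest, and the value of 0 for Cox8b in vehicle replicate 1 is not drawn.

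Atp5b, the catalytic beta subunit of the ATP synthase, was the most abundant member. Its level was 460 and 571 RPKM with vehicle, 574 and 538 RPKM with PTH, and 537 and 546 RPKM with YKL-05-093. Atp5a1, the alpha subunit that forms the catalytic ring with it, had 248 and 273 RPKM with vehicle, 280 and 259 RPKM with PTH, and 271 and 278 RPKM with YKL-05-093. Both genes had their lowest value in vehicle replicate 1, and the conditions overlapped. Atp5c1, the gamma subunit of the central stalk, lay between 142 and 202 RPKM.

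In complex I, the accessory subunit Ndufb9 was highest, with 222 and 347 RPKM in the vehicle libraries, 331 and 302 RPKM with PTH, and 320 and 296 RPKM with YKL-05-093. The core subunits of the peripheral arm, most of which carry the flavin or iron-sulfur clusters, covered a wide range. Mean levels ran from 124 RPKM for Ndufv1 through 80.0 RPKM for Ndufv2, 63.1 RPKM for Ndufs8 and 55.6 RPKM for Ndufs7 to 23.5 RPKM for Ndufs1 and 16.8 RPKM for Ndufs3. In complex III, Uqcr10 was highest, with a mean of 223 RPKM. The core proteins Uqcrc1 and Uqcrc2 had means of 86.8 and 44.2 RPKM, and Uqcrfs1, the Rieske iron-sulfur protein, had 70.7 RPKM.

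In complex IV, Cox8a (456 RPKM), Cox6b1 (417 RPKM) and Cox4i1 (406 RPKM) had the highest means. These are the widely expressed forms of subunits that also have a paralogue with a narrower pattern. Cox4i2, a form induced in lung and by low oxygen, had 6 reads in all 6 libraries together, beside 86719 for Cox4i1. Cox6a1 took between 99.9% and 100% of its pair, and the heart and muscle form Cox6a2 had 18 reads in all. Cox6b1 had the testis form Cox6b2 as a partner with 2 reads in all. Cox7b2 was listed at 0 in every library beside 22799 reads for Cox7b, and Cox8c had 1 read in all. With at most 4 reads in any library, Cox4i2, Cox6a2, Cox6b2, Cox8c and Atp5l2 were near or under the floor of 3 reads, and a difference between conditions was not detectable for them at this depth.

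The other paralogue sets kept a minor form above that floor. In the Cox7a set, Cox7a2 took between 68.1% and 74.7% of the summed RPKM and Cox7a2l, which takes part in joining complexes III and IV into supercomplexes, between 24.6% and 31.4%. The heart and muscle form Cox7a1 took between 0.531% and 1.02%, with 132 reads in all. Ndufa4, a subunit named for complex I and now also assigned to complex IV, took between 81.8% and 90.7% of the sum with Ndufa4l2, which is known as a gene induced by low oxygen. Atp5g1, Atp5g2 and Atp5g3 encode the same mature c subunit of the membrane rotor. Atp5g3 took between 92.5% and 93.6% of their sum, Atp5g1 between 4.49% and 4.96% and Atp5g2 between 1.59% and 2.55%. These shares rest on the lengths and the read assignment of the deposited values, which differ between the 3 genes as described next.

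The lowest levels among the tested members often belonged to genes whose transcripts share sequence with other genes. Each main transcript in GENCODE M21 (GRCm38) was divided into all windows of 50 bases, the length of 1 read. The libraries were sequenced as read pairs, so a shared window does not show that a whole pair was ambiguous. The share of windows also present in a transcript of another gene, on either strand, was counted. Of 34 members with under 1% of shared windows, 5 had a mean under 15 RPKM, and of 27 members with 1 to 30%, 0 did. Of 14 members with 30% or more, 7 were under 15 RPKM. In that group the median of the mean levels was 14.7 RPKM, against 85.7 RPKM and 104 RPKM in the other groups. Atp5g2 shared 100% of its windows, Atp5l 84.8%, Atp5g1 66.0%, Cox7c 53.0%, Ndufs5 41.2%, Ndufb4 37.0% and Ndufb2 33.5%. The count also took in overlap with a gene on the opposite strand at the same place, where a read need not map to several places. Ndufb6 shared windows only with such a gene, Smim27, and Ndufb2 overlaps Gm16272 and Braf in this way. How the authors assigned reads that map to several places is not given in the sources used here, so the levels of these genes are uncertain.

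**Figure D2:**
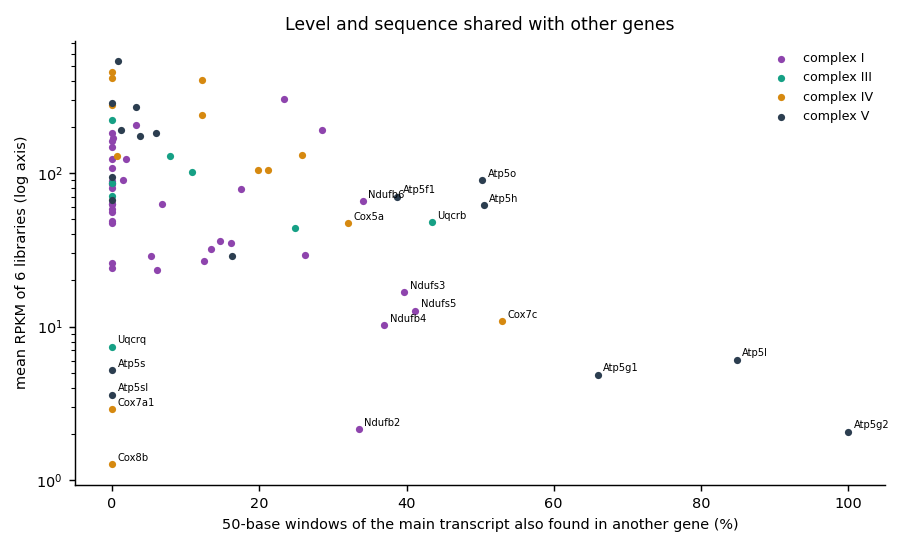
Mean RPKM of 6 libraries (log axis) against the percentage of 50-base windows of the main transcript found in another gene on either strand. Each of the 75 tested members is 1 point, coloured by complex. Members with at least 30% of shared windows or under 15 RPKM are named, and 7 of the 14 with at least 30% lay under 15 RPKM.

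The length by which reads were divided also differed between members. Worked back from the deposited values, this length was a median of 2.86 times the coding length of the main transcript, and it ran from 1.00 times for Atp5g2 to 11.4 times for Ndufb7, 14.96 times for Ndufb2 and 22.7 times for Atp5g1. Per coding length, the order of the 75 members had a Spearman correlation of 0.88 with their order in RPKM. Cox4i1, Atp5e, Atp5b and Cox8a were then the 4 highest, and Atp5g1 moved from 4.85 RPKM to 110 in the same unit per coding length. Differences between libraries are not touched by this length, because each gene has 1 length in all of them.

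The members moved together from library to library, and the largest movement was between the 2 vehicle libraries. Their summed level was 6363 RPKM in vehicle replicate 1 and 9050 RPKM in vehicle replicate 2. It was 8764 and 8256 RPKM with PTH and 8493 and 7703 RPKM with YKL-05-093. Vehicle replicate 1 was thus 24.7% below the mean of the other 5 libraries, which differed among themselves by at most 1.17-fold. Of the 75 tested members, 70 had their lowest value of all 6 libraries in vehicle replicate 1, and 48 had their highest in vehicle replicate 2. Over the 14264 genes past the same filter, 26.0% were lowest in vehicle replicate 1 and 20.9% were highest in vehicle replicate 2.

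**Figure D3:**
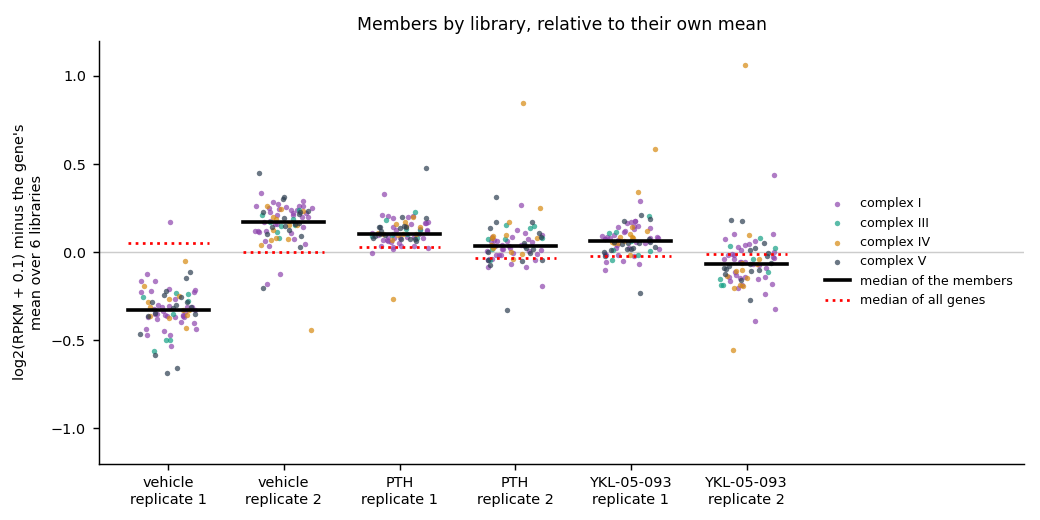
Level of each tested member in each library, as log2(RPKM + 0.1) minus the mean of the same gene over the 6 libraries, coloured by complex. Black bars are the median of the members and dotted red bars that of all genes past the filter, and 2 points of Cox8b lie outside the axis. The members' median was -0.33 in vehicle replicate 1 and between -0.06 and 0.17 in the other libraries.

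On the log2 scale, the median difference of vehicle replicate 1 from vehicle replicate 2 was -0.51 over the members, and 74 of 75 were lower in replicate 1. The medians were -0.53 for complex I, -0.44 for complex III, -0.50 for complex IV and -0.52 for complex V. Among the 63 members with a mean of at least 15 RPKM, the difference ran from -0.89 for Atp5e, the epsilon subunit of the ATP synthase, to 0.29 for Ndufs1, the largest iron-sulfur subunit of complex I. Ndufs1 was the exception, with 26.4 RPKM in vehicle replicate 1 and 21.5 RPKM in vehicle replicate 2, between 22.1 and 25.1 RPKM in the treated libraries. Between the 2 PTH libraries the median difference of the members was 0.09 and between the 2 YKL-05-093 libraries 0.15.

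The low values of vehicle replicate 1 were not particular to the respiratory chain. The 85 tested genes of cytosolic ribosomal proteins had a median difference of -0.52 between the vehicle libraries, and 75 of them were lowest in vehicle replicate 1. All genes past the filter had a median difference of 0.06, and this library varied with transcript length. Over 3131 genes whose main transcript is shorter than 1000 bases, vehicle replicate 1 was a median of 0.28 below the mean of the other 5 libraries on the log2 scale, and over 8053 genes of 2000 bases or more it was 0.22 above. Of the members, 51 had a main transcript under 1000 bases, with a median of -0.42, 20 had one of 1000 to 2000 bases, with -0.38, and 4 had a longer one, with -0.20. These 4 were Ndufa10, Atp5sl, Atp5a1 and Ndufs1. Across the 75 members, which share these libraries, the difference of vehicle replicate 1 had a Pearson correlation of 0.32 with the log2 length of the main transcript. The part of length or of this library in the differences given next was not tested beyond values with and without each. With the length trend removed, the members' median log2 fold change was 0.10 for PTH against vehicle, with 63 of 75 above 0. It was 0.06 for YKL-05-093 against vehicle and 0.05 for PTH against YKL-05-093, each with 55 of 75 above 0.

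**Figure D4:**
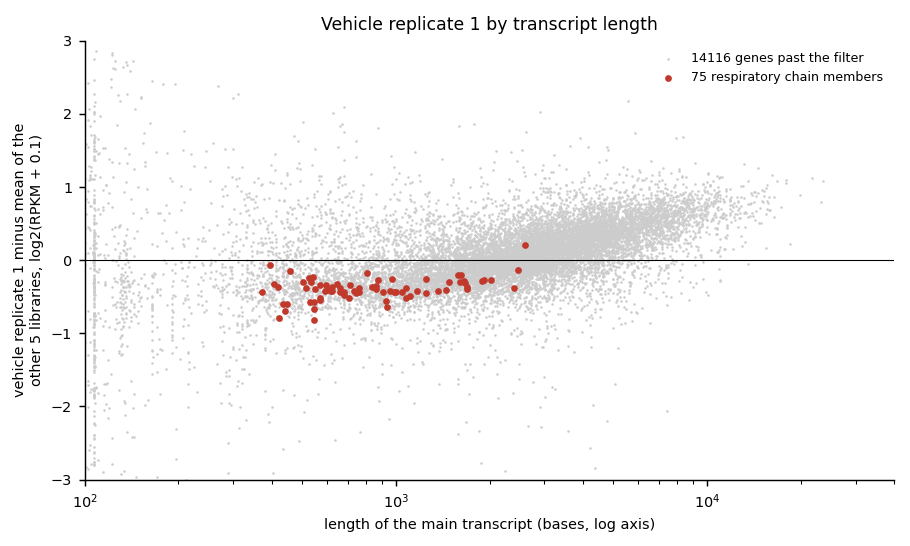
Difference of vehicle replicate 1 from the mean of the other 5 libraries in log2(RPKM + 0.1), against the length of the main transcript in bases (log axis). Grey points are 14116 genes past the filter that have a transcript in GENCODE M21, of which 56 lie outside the vertical axis, and red points are the 75 members. Most members lie at the short end and below 0, where 3131 genes under 1000 bases have a median of -0.28.

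Known motifs were searched in the RefSeq promoters of GRCm38.p6, from 250 bases before to 50 after each gene's start. Of the members, 63 were found by their symbol and 3 by an older symbol. The core of the NRF-1 motif, CGCANGCG, was present on either strand in 24 of these 66 members (36.4%), against 9.22% of 27025 genes. The GABP motif CCGGAAG was in 14 (21.2%, against 9.93%), and the YY1 motif AAGATGGCG was in 8 (12.1%, against 1.64%). The cAMP response element TGACGTCA, which CREB binds and which lies downstream of the PTH receptor, was in 4 (6.06%, against 2.03%). No match in a member overlapped that of another motif. A match describes the letters and does not show that the factor binds. The windows below are shown because they hold the NRF-1 motif or the cAMP response element in a selection of members whose values the text gives, on the strand of the gene with the match in capitals. They lie outside the gene as annotated in GENCODE M21.
Cox6a1 (NRF-1), chr5:115349082-115349149, - strand: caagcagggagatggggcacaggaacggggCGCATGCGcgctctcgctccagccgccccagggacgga
Ndufa11 (NRF-1), chr17:56717673-56717740, + strand: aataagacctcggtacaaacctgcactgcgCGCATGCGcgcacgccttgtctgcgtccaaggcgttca
Ndufb4 (NRF-1), chr16:37654521-37654588, - strand: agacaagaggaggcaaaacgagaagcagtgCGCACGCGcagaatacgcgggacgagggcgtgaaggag
Atp5l (NRF-1), chr9:44920946-44920992, - strand: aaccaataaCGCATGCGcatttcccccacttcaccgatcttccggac
Atp5sl (NRF-1), chr7:25619288-25619355, + strand: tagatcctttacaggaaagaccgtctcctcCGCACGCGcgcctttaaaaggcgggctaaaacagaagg
Ndufa11 (CREB), chr17:56717574-56717641, + strand: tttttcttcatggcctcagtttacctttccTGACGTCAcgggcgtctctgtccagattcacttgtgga
Ndufb2 (CREB), chr6:39592521-39592564, + strand: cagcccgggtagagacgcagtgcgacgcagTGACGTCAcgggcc

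The members with a cAMP response element were Ndufa10, Ndufa11, Ndufb2 and Uqcrfs1. Ndufa11 is an accessory subunit that stabilizes complex I. It had 19.1 and 30.5 RPKM with vehicle, 27.8 and 27.9 RPKM with PTH, and 29.1 and 26.6 RPKM with YKL-05-093. Ndufb2 had 1.94 and 2.22 RPKM with vehicle, 2.29 and 2.23 RPKM with PTH, and 2.63 and 1.60 RPKM with YKL-05-093. For PTH against vehicle, the log2 fold change was 0.12 for Ndufa10, 0.20 for Ndufa11, 0.11 for Ndufb2 and 0.22 for Uqcrfs1. None of these genes passed the test in any comparison. Ndufb4 held 3 matches to the NRF-1 motif, at 190, 78 and 21 bases before the RefSeq start.

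PTH was first compared with vehicle, to ask whether 4 h of the hormone changed the level of these transcripts. No member passed the test (limma on log2(RPKM + 0.1), Benjamini-Hochberg adjusted p under 0.05), where 2.19% of all 14261 genes tested did, and 1.91% when a change of more than 2-fold was required as well. The lowest adjusted p of a member was 0.223, 2 members had an unadjusted p under 0.05, and voom on the recovered reads also called 0. The median log2 fold change of the members was 0.14, beside -0.03 over all genes tested, and 72 of 75 were above 0. This median was -0.10 without vehicle replicate 1, with 14 of 75 above 0. It was 0.40 without vehicle replicate 2, so its sign rested on which vehicle library was used. Calls also depended on the vehicle library left out. In 7 members (9.33%) both PTH libraries were above both vehicle libraries, where 19.1% of all genes were, and in 0 members both were below, where 24.0% of all genes were.

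The 95% intervals of the differences show what these libraries could resolve. Their median half-width was 0.51 on the log2 scale for PTH against vehicle. The interval lay within a 2-fold change in either direction for 71 of 75 members and within 1.5-fold for 20. Against YKL-05-093, without the vehicle libraries, the median half-width was 0.16, and the interval lay within 1.5-fold for 70 members and within 1.25-fold for 56.

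**Figure D5:**
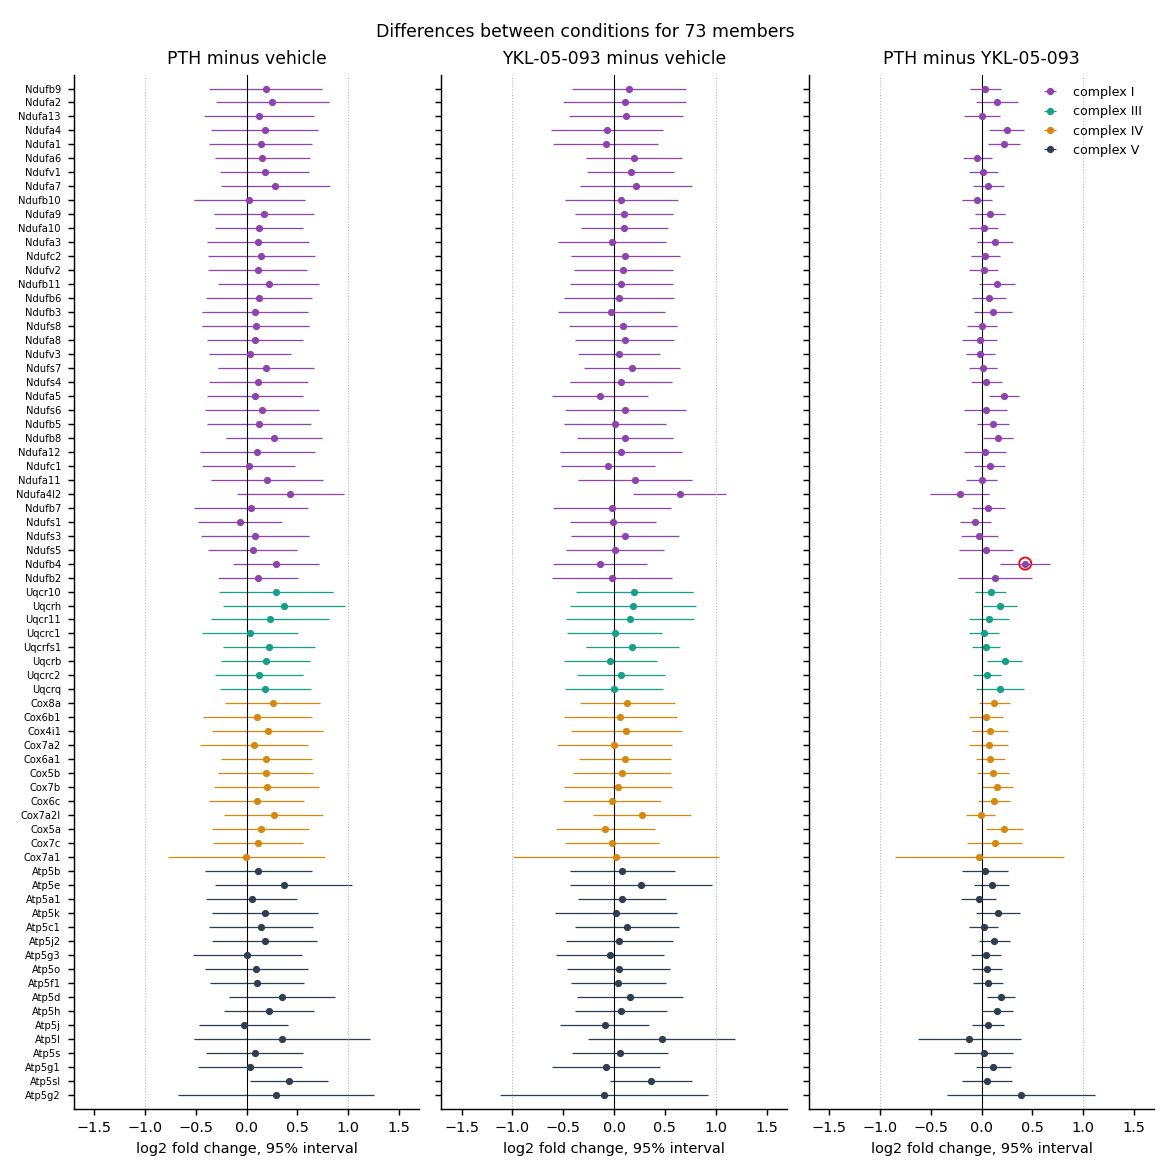
Log2 fold changes with 95% intervals from limma (points and bars) for 73 members in 3 comparisons, coloured by complex and ordered by level within each complex, with dotted lines at a 2-fold change. Cox8b is left out because its interval exceeds the axis. The red circle marks Ndufb4, the 1 member that passed the test, and the bars of the comparison without vehicle libraries are the shortest.

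The largest difference from vehicle was in the lowest tested member. Cox8b, the heart and muscle form of the smallest complex IV subunit, had 0 and 6 reads with vehicle, 19 and 11 reads with PTH, and 8 and 14 reads with YKL-05-093. In RPKM these were 0 and 0.596, 2.44 and 1.60, and 1.10 and 1.87, so both treatments lay above both vehicle libraries. The log2 fold change was 2.98 (SE 0.94, limma adjusted p = 0.223) for PTH and 2.54 (SE 1.00, limma adjusted p = 0.513) for YKL-05-093. Its size depended on the pseudocount, since 1 vehicle library was at 0, and ran from 1.24 to 4.68 for PTH over the alternatives. Without vehicle replicate 2, the library with reads, Cox8b was called. Of 8 markers of skeletal muscle, whose summed level was 1.25 to 2.41 RPKM, 1 passed the filter, and Myod1 and Ckm were at 0 in all libraries. The marker that passed was Actn3, with 2.09 and 1.48 RPKM in vehicle, 0.983 and 0.931 RPKM with PTH, and 1.36 and 1.58 RPKM with YKL-05-093, so that PTH was lowest (log2 fold change from vehicle -0.82, limma adjusted p = 0.166).

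Atp5sl had 2.85 and 3.09 RPKM with vehicle, 3.95 and 4.04 RPKM with PTH, and 3.63 and 4.06 RPKM with YKL-05-093, so that vehicle was lowest and the treatments overlapped. Its log2 fold change was 0.42 (SE 0.16, limma adjusted p = 0.326) for PTH and 0.36 (SE 0.17, limma adjusted p = 0.644) for YKL-05-093. Atp5e had 177 and 328 RPKM with vehicle, on either side of the 320 and 300 RPKM with PTH, and a log2 fold change of 0.36 (SE 0.29). Uqcrh, the hinge protein of complex III, had 86.0 and 144 RPKM with vehicle and 149 and 139 RPKM with PTH, which overlapped, and a log2 fold change of 0.37 (SE 0.26). Among the 62 members of at least 15 RPKM other than Ndufa4l2, the log2 fold changes for PTH lay between -0.07 for Ndufs1 and 0.37 for Uqcrh.

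YKL-05-093 was compared with vehicle in the same way, to ask what this inhibitor did to these transcripts. No member passed the test, where 0.666% of all 14255 genes tested did, and all 95 of those genes also passed the 2-fold limit, again 0.666%. The lowest adjusted p of a member was 0.340, 2 members had an unadjusted p under 0.05, and voom called 0. The median log2 fold change was 0.07 over the members and -0.04 over all genes, with 57 of 75 members above 0. It was -0.18 without vehicle replicate 1, with 9 above 0, 0.32 without vehicle replicate 2, with 74 above 0, and -0.00941 without YKL-05-093 replicate 1. Both YKL-05-093 libraries were above both vehicle libraries in 6 members (8.0%), against 15.7% of all genes, and below in 0, against 22.1%. This comparison shares the vehicle libraries with the one for PTH.

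Ndufa4l2 stood apart from the other members of its level. It had 17.4 and 22.2 RPKM with vehicle, 31.9 and 22.1 RPKM with PTH, and 27.8 and 34.2 RPKM with YKL-05-093. The YKL-05-093 libraries were above both vehicle libraries, and the 2 PTH libraries lay apart from each other, one at the level of vehicle and one between the YKL-05-093 libraries. Its log2 fold change for YKL-05-093 was 0.64 (SE 0.20, 95% interval 0.18 to 1.11, limma adjusted p = 0.340), and no alternative called it, with adjusted p from 0.0527 to 1.00. For the other 62 members of at least 15 RPKM, the log2 fold changes for YKL-05-093 lay between -0.14 for Ndufa5 and 0.27 for Cox7a2l. Atp5l, the g subunit of the ATP synthase, had 3.60 and 6.47 RPKM with vehicle and 6.79 and 6.64 RPKM with YKL-05-093, a log2 fold change of 0.47 (SE 0.31, limma adjusted p = 0.793), and its PTH libraries had 8.20 and 4.64 RPKM. Hif1a, a factor of the response to low oxygen, had 36.8 and 29.5 RPKM with vehicle. It had 25.5 and 24.2 RPKM with PTH and 28.3 and 27.3 RPKM with YKL-05-093. This transcript passed the test against vehicle in neither comparison (limma adjusted p = 0.403 and 0.815), and the protein and its activity were not measured in these libraries.

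PTH was then set against YKL-05-093 directly, a comparison in which neither vehicle library takes part. One member passed the test, 1.33% of the 75, where 10.01% of all genes tested did, and no member did at more than 2-fold, where 1.21% of all genes did. The median log2 fold change of the members was 0.07, beside 0.01 over all genes tested, and 62 of 75 were above 0. Without YKL-05-093 replicate 2 the median was -0.00140, and without YKL-05-093 replicate 1 it was 0.16. Both PTH libraries were above both YKL-05-093 libraries in 20 members (26.7%), against 26.3% of all genes, and below in 1 (1.33%), against 23.7%.

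The member that passed was Ndufb4, an accessory subunit in the membrane arm of complex I. Its level was 11.7 and 12.2 RPKM with PTH and 9.71 and 8.07 RPKM with YKL-05-093, and the vehicle libraries had 8.67 and 11.0 RPKM. The PTH libraries were the 2 highest of the 6, with 325 and 299 reads, against 253 and 215 reads with YKL-05-093. The log2 fold change was 0.43 (SE 0.12, 95% interval 0.18 to 0.68, limma adjusted p = 0.0264). Against vehicle it was 0.29 for PTH and -0.14 for YKL-05-093, with limma adjusted p = 0.590 and 0.902. The call was lost when any 1 of the 4 libraries was left out, with log2 fold changes from 0.30 to 0.56, and the adjusted p ran from 0.00496 to 0.497 over the alternatives. Of the windows of its main transcript, 37.0% are shared with other genes, most with Ndufb4c.

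Ndufa5, Atp5d, Ndufa4 and Ndufa1 had the lowest adjusted p values after Ndufb4. Their log2 fold changes were 0.22, 0.19, 0.25 and 0.22, with limma adjusted p of 0.0571, 0.0746, 0.0750 and 0.0817. Ndufa4 had 208 and 192 RPKM with PTH and 184 and 154 RPKM with YKL-05-093, while the vehicle libraries spanned 144 to 217 RPKM. Atp5d, the delta subunit of the ATP synthase stalk, had 75.8 and 74.6 RPKM with PTH, 65.5 and 66.2 RPKM with YKL-05-093, and 48.0 and 72.4 RPKM with vehicle. The 2 treatments did not overlap for any of these 4 genes. Atp5g2 had 2.22 and 2.52 RPKM with PTH and 1.69 and 1.88 RPKM with YKL-05-093, from at most 21 reads in these libraries, a log2 fold change of 0.39 (SE 0.34, limma adjusted p = 0.576). Uqcrb, a small subunit of complex III, had 51.9 and 52.5 RPKM with PTH and 47.7 and 41.7 RPKM with YKL-05-093, a log2 fold change of 0.23 (SE 0.08, limma adjusted p = 0.0959), and 43.4% of its windows are shared.

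Genes that work with these subunits were read from lists. None of the 4 complex II subunits was called by limma in any comparison, 0 had an unadjusted p under 0.05 and voom called 0, and their summed level lay between 238 and 318 RPKM. Sdha, the flavoprotein, differed from most members in having its highest value, 32.0 RPKM, in vehicle replicate 1, with 26.8 to 31.0 RPKM in the others. Of the assembly factors, 14 for complex I, 5 for complex III, 16 for complex IV and 4 for the ATP synthase were tested, and 0 were called in any comparison by limma or by voom. An unadjusted p under 0.05 was found for 0 of them with PTH against vehicle, for Ndufaf4 and Cox10 with YKL-05-093 against vehicle, and for Ndufaf4, Ttc19, Cox10, Cox18 and Pet100 between the treatments. The median log2 fold changes of these 4 groups lay between -0.13 and 0.11 in all 3 comparisons.

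Of 14 regulators of mitochondrial genes, 11 were tested and 0 were called in any comparison by limma or by voom, with 1 unadjusted p under 0.05 in each. Pprc1, a coactivator of the PGC-1 family, had the largest difference, with 4.10 and 2.88 RPKM in vehicle, 2.01 and 1.86 RPKM with PTH, and 1.81 and 2.05 RPKM with YKL-05-093. Both treatments lay below both vehicle libraries, and its log2 fold changes were -0.80 (SE 0.20, limma adjusted p = 0.125) and -0.80 (SE 0.21, limma adjusted p = 0.235). Ppargc1a, the founding PGC-1 coactivator, was at most 0.0996 RPKM, and Ppargc1b and Ppara did not pass the filter. Nrf1 lay between 5.34 and 6.10 RPKM, Tfam, which packages mitochondrial DNA, between 14.2 and 15.8 RPKM, Esrra between 8.14 and 9.35 RPKM, Yy1 between 18.9 and 24.2 RPKM, and Gabpa between 18.8 and 27.9 RPKM. Gabpb1, Tfb1m, Tfb2m and Polrmt lay between 1.82 and 9.20 RPKM, with log2 fold changes from -0.34 to 0.25 in the 3 comparisons.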

How the data were processed

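The study sequenced directional libraries of ribosomal-RNA-depleted RNA from Ocy454 cells, 2 for each of vehicle, PTH and YKL-05-093. Per the methods, STAR (mm10, GRCm38) was used for alignment and HTSeq with Ensembl release 75 for counting, and the authors deposited linear RPKM values with no further scaling of the libraries. How gene length and multiply mapping reads were handled is not given in the sources used here. The deposited values of 1 gene are whole multiples of 1 read, from which reads, lengths and library totals were worked back. They served to describe depth and to model the spread. Intervals rest on the spread between the libraries of a fit, and the floor of 3 reads covers counting error only.

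Differences were tested with limma 3.58.1 (R 4.3.3) on log2(RPKM + 0.1). Genes that reached 0.5 RPKM in 2 or more of the 6 libraries were kept, and the prior variance followed a trend on the mean log2 reads recovered. Each comparison was fitted on its 4 libraries, and p-values were adjusted over all genes tested. Fold changes are on the log2(RPKM + 0.1) scale, which understates changes of low genes. An exact permutation test of 2 libraries against 2 cannot go below p = 0.333. The recovery of reads and the limma fits were each tested on simulated libraries. Those for limma held no library shift such as that of vehicle replicate 1, so they cannot show how the fits behave with it.

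The members, lists, test and settings were chosen with earlier results of these data known. Members are named if they passed the test, were among the 5 largest differences in a comparison or the 5 highest or lowest levels, or belong to fixed paralogue or catalytic groups. Other members in the text, such as Ndufa1, Ndufa5, Ndufa10, Ndufa11, Atp5d, Cox7c and Uqcr10, and the lists' genes outside the regulators were chosen after their values were seen. The motifs were chosen after longer forms of them had been counted. Alternatives were other pseudocounts, filters, spread models, scalings, the replicate number as a block, and leaving out each library. The values of 1 tested member are not reported here, although it stays in the counts and medians.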

Additional observations from a re-analysis of the deposited data

How the results depend on the processing

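For PTH against vehicle, 0 members were called under every alternative that kept all libraries except the replicate block. That block called 1 member, Cox8b, where 759 of all 14261 genes tested were called. For YKL-05-093 against vehicle the count was 0 under every alternative that kept all libraries. The 53 and 15 calls came without vehicle replicate 2, and all were higher with treatment. The cause was not tested. For PTH against YKL-05-093 the count of 1 became 0 with the filter of 0.1 RPKM, with no filter, with the trend on the mean value, with no trend, with all 6 libraries in 1 fit and at more than 2-fold. It was 2 with median-ratio scaling, scaling without mitochondrially encoded genes and quantile normalization. Of all 14255 genes tested, 1506, 1352 and 1641 were called under these settings. The count was 3 with the length trend removed, voom and the replicate block, where 1753, 1591 and 1750 of all 14255 genes tested were called. Ndufb4 itself was not called with median-ratio scaling. The cause was not tested.

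The median log2 fold changes of the members kept their sign under all pseudocounts, filters and scalings. When 1 library was left out they ran from -0.10 to 0.40 for PTH against vehicle, from -0.18 to 0.32 for YKL-05-093 against vehicle, and from -0.00140 to 0.16 for PTH against YKL-05-093. Of 1734 values of named members under alternatives, 34 gained a call, 31 of them without vehicle replicate 2, 10 lost one, and 153 changed sign with no call under either setting. The range of levels was 424-fold in RPKM and 644-fold per coding length, an alternative chosen after seeing the data.

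Replicate numbers do not pair the libraries in the labels. Over all genes, deviations of same-numbered libraries had correlations of -0.03, -0.05 and -0.05, so the replicate block shares only a number. The replicate block gave 1, 0 and 3 called members in the 3 comparisons. Over all genes it called 759 of 14261, 301 of 14255 and 1750 of 14255.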

Other observations

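Of the 13 subunits encoded by mitochondrial DNA, 11 were tested and 0 were called in any comparison by limma or by voom, with 2, 1 and 2 unadjusted p values under 0.05 for PTH against vehicle, YKL-05-093 against vehicle and PTH against YKL-05-093. They did not follow the nuclear members across libraries. Their median difference between vehicle replicates 1 and 2 was 0.02 on the log2 scale, against -0.51 for the nuclear members, and 0 of the 11 were lowest in vehicle replicate 1. The catalytic subunit mt-Co1 lay between 1180 and 1714 RPKM. Its partners in complex IV, mt-Co2 (0.419 to 1.30 RPKM) and mt-Co3 (0.502 to 2.34 RPKM), were listed near 0, as were mt-Atp6 and mt-Atp8. How multiply mapping reads were handled is not given in the sources used here, so these low levels are uncertain.

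Among genes outside the symbol rule, Cyc1, the cytochrome of complex III, had 49.4 to 70.6 RPKM, whereas Cycs, the somatic cytochrome c, had 0.945 to 1.49 RPKM and Ndufab1, the acyl carrier protein of complex I, had 0.641 to 0.943 RPKM. None of these 3 genes was called in any comparison. The handling of gene length and of multiply mapping reads is not given, so the low levels of Cycs and Ndufab1 are uncertain.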
